A study of Mus musculus with 19 samples.

Results

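Sensory neuropeptides were examined in dorsal root ganglion (DRG) neurons that expressed either GFP alone or α9 integrin together with kindlin-1, which activates it (α9k1), with and without dorsal root crush. The list held 10 precursor genes: Calca and Calcb, which encode calcitonin gene-related peptide (CGRP), and Tac1 (substance P), Gal (galanin), Npy (neuropeptide Y), Vip (vasoactive intestinal peptide), Adcyap1 (PACAP), Sst (somatostatin), Nppb (B-type natriuretic peptide) and Nts (neurotensin). Members were found by gene symbol in the deposited expression table, and 9 of the 10 were among its 12629 genes. Nts was not among them and could not be measured here.

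There were 19 libraries of GFP-positive neurons sorted by FACS 8 weeks after virus injection into the left C5 to C8 DRGs. The GFP-naive (n = 5) and GFP-crush (n = 4) groups received AAV5-fGFP, and the α9k1-naive (n = 6) and α9k1-crush (n = 4) groups received AAV5-α9-V5 together with AAV5-kindlin1-GFP. The crush groups also had their dorsal roots crushed, which cuts the central branch of the sensory axon and spares the peripheral branch. The sort was on GFP, so that neurons of the α9k1 groups carried kindlin-1 by selection and α9 only where both viruses had entered. By the study's methods the CMV promoter drove fGFP and kindlin1-GFP, the CAG promoter drove α9, and the animals were adult male Lewis rats. The labels name C57BL/6 mice, and reads were aligned to the mouse genome, where between 3.87% and 4.05% of aligned bases differed from the reference. The species was not tested. The paper counts 4 to 6 biological replicates per condition. The labels do not say which libraries came from separate animals, so that p-values measure the spread between these libraries.

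Sequencing gave between 36.4 M and 87.6 M read pairs per library, and the share of reads aligned was 47.5% to 54.1%. Values are log2 expression that the authors had corrected for gene length and sequencing depth, and a difference of 1 is a doubling. Pearson correlations between libraries were 0.948 to 0.976 within groups and 0.847 to 0.949 between groups. Fermt1, the gene of kindlin-1, lay between 6.42 and 7.73 in the α9k1-crush libraries and between 5.18 and 6.00 in the α9k1-naive libraries. In the 9 GFP libraries it lay between 0.42 and 0.80. Itga9, the gene of α9 integrin, lay between 5.53 and 7.51 in the α9k1-crush libraries, between 2.38 and 5.16 in the α9k1-naive libraries and between 0.90 and 2.40 in the GFP libraries. Both genes were thus higher in every α9k1-crush library than in any α9k1-naive library. Neuron markers were present in every library, with Tubb3 between 9.45 and 10.8, and so were markers of other cells. Apoe, a gene of satellite glia and macrophages, was at 14.02 to 16.74 and reached the highest value of the whole table.

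Neuropeptides are cut from precursor proteins, packed into dense-core vesicles and released from both ends of the sensory axon, where they act on G protein-coupled receptors. CGRP and substance P are the classical transmitters of peptidergic nociceptors, and PACAP is made largely in the same cells. Galanin, neuropeptide Y, vasoactive intestinal peptide and PACAP are known to rise in DRG neurons after the peripheral nerve is cut, while substance P and CGRP fall. Somatostatin and B-type natriuretic peptide mark a small class of itch neurons.

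Sequence immediately before the transcription start is shown for Gal, Adcyap1 and Nppb, whose transcripts were called higher in α9k1-naive than in GFP-naive and lower in α9k1-crush than in α9k1-naive, as described further on, and for the injury-induced peptides Npy and Vip. The 100 bases before the outermost start given by RefSeq or GENCODE vM21 are printed in the direction of transcription, from RefSeq (GRCm38.p6), and capitals mark the motif TGACG, the half-site of the cAMP response element (CRE), on either strand.
Gal, chr19:3414545-3414644, minus strand: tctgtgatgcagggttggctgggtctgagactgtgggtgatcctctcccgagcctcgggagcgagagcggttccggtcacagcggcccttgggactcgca
Adcyap1, chr17:93198917-93199016, plus strand: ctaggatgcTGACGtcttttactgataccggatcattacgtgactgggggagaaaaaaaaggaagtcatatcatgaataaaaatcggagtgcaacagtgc
Nppb, chr4:147985688-147985787, plus strand: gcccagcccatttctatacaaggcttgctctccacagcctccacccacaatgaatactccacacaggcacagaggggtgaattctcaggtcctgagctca
Npy, chr6:49822610-49822709, plus strand: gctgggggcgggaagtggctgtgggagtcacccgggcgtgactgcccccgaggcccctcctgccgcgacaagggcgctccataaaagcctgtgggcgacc
Vip, chr10:5639118-5639217, plus strand: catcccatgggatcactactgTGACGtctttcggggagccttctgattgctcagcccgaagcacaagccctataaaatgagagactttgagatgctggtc
Adcyap1 and Vip each had 1 half-site in this window, and Gal, Nppb and Npy had none. The full element TGACGTCA was found in 1 of the 9 members whose 250 bases before the RefSeq start were searched on both strands. This member was Sst, and the element lay 48 to 41 bases before the start, as shown here with the element in capitals.
Sst, chr16:23890877-23890900, minus strand: tccttggcTGACGTCAgagagaga
Of all 32851 promoters in the table, 1.55% held the full element, 17.8% the half-site, which is part of the full element, and 6.75% the AP-1 motif TGANTCA in the 250 bases before the start. Over the same length the half-site was found in 6 of the 9 members searched, which were Adcyap1, Calca, Nts, Sst, Tac1 and Vip. A member counted if any of its starts had a match, whereas the shares over all promoters count each start by itself. The AP-1 motif had a match only in the promoter of Nts among the members with a promoter in the table, which were 9 of the 10 listed genes and did not include Calcb. A match describes the letters and not a site in use. The letters are those of the mouse genome, and the promoters of the rats named in the study's methods were not examined.

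Calca and Calcb are neighbours on chromosome 7 (Calca at chr7:114631478-114636357 on the minus strand, Calcb at chr7:114718643-114723365 on the plus strand) and share coding sequence. The longest stretch shared by their GENCODE vM21 transcripts was 61 bases, lay inside the coding sequence and ran over 2 exons in each gene.
Calca and Calcb, shared coding stretch: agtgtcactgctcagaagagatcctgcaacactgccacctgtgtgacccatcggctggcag
This is mouse sequence, and the transcripts of the rats named in the study's methods were not examined. Where the animals sequenced carry the same stretch, reads over it could be assigned to Calca or Calcb only by the bases around it and by their mates. How many were ambiguous was not tested.

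Calca and Tac1 were among the most abundant transcripts of the sorted cells. On the length-corrected scale, the mean level over the 19 libraries was 11.02 for Calca and 10.49 for Tac1, above those of 99.8% and 99.7% of genes measured. Calcb (8.74) was at the percentile 97.7, Gal (7.63) at 93.9, Adcyap1 (6.64) at 86.6, Npy (5.82) at 76.2 and Sst (5.10) at 64.8. Vip (2.76) and Nppb (2.50) were low, at the percentiles 13.0 and 7.34.

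**Figure D1:**
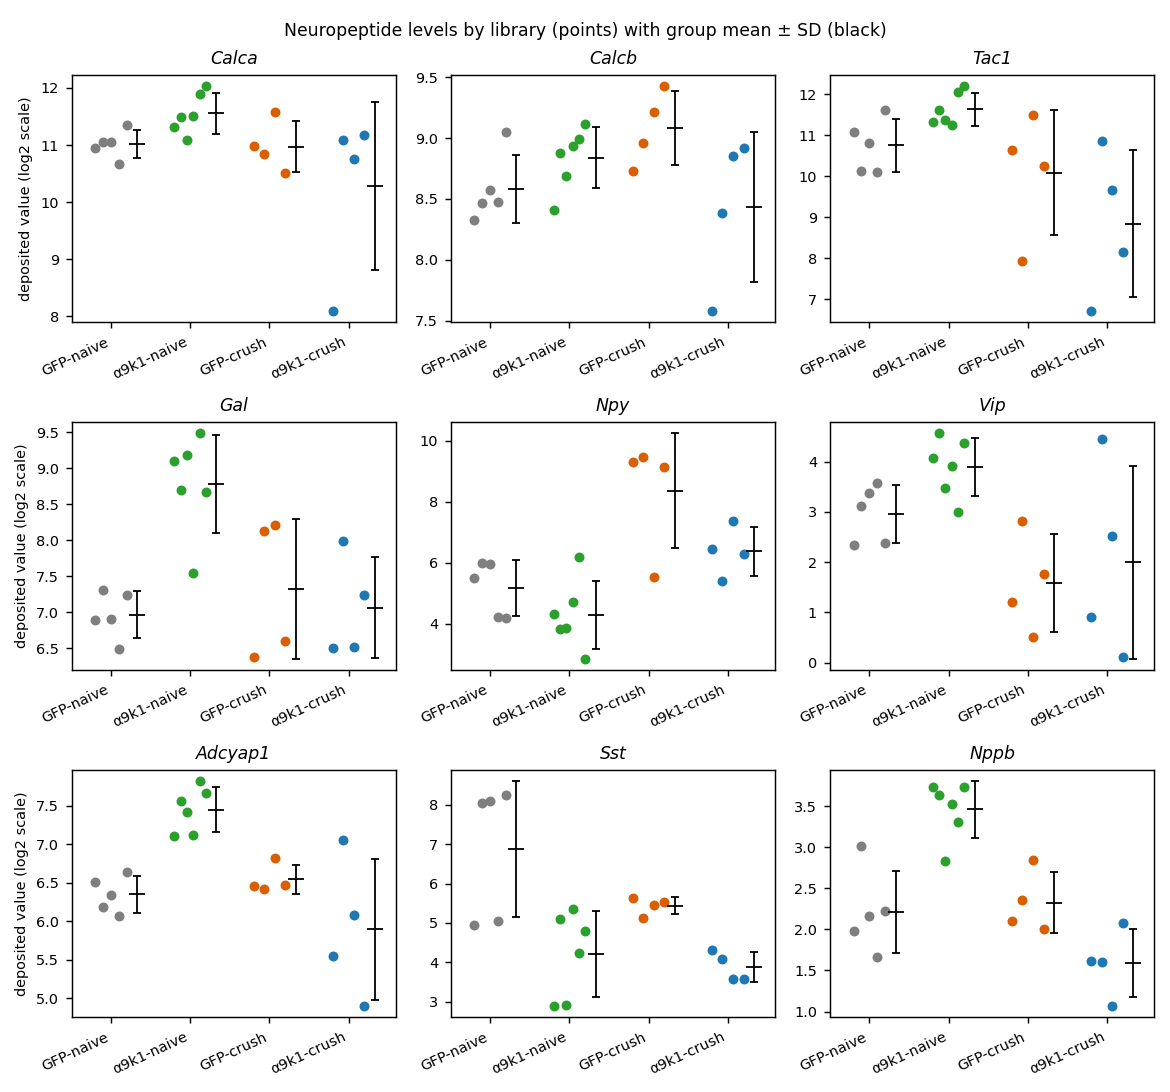
Deposited log2 values of the 9 neuropeptide genes (y axis, a separate range in each panel) in each of the 19 libraries by group, with the mean and SD of each group in black. Gal and Adcyap1 were higher in all 6 α9k1-naive libraries than in any GFP-naive library, Npy was above 9 in 3 of 4 GFP-crush libraries, and 1 α9k1-crush library had the lowest Calca, Calcb and Tac1.

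α9k1 expression without injury was compared with GFP alone. Galanin, PACAP and B-type natriuretic peptide transcripts were higher in α9k1-naive neurons, neuropeptide Y transcript was lower, and the other 5 peptides did not pass the test. In all, 4 of the 9 members passed at an FDR-adjusted p under 0.1 (limma over all genes with 3 principal components of library quality as covariates), of which 3 were higher and 1 lower. Among all genes, 29.1% passed, 11.4% higher and 17.6% lower. The median log2FC of the members was 0.92 and that of all genes -0.08.

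Gal was at 6.89, 7.31, 6.90, 6.49 and 7.23 in the GFP-naive libraries and at 7.54 (lowest), 8.90 (median) and 9.48 (highest) in the α9k1-naive libraries. The groups did not overlap, which held for 2 of the 9 members and for 21.7% of all genes. The log2FC was 2.12 (SE 0.40, adjusted p = 0.00149), a 4.34-fold difference. Adcyap1 was at 6.51, 6.19, 6.34, 6.06 and 6.65 in GFP-naive and between 7.11 and 7.83 in α9k1-naive, with a median of 7.49. These groups were also apart, and the log2FC was 1.35 (SE 0.31, adjusted p = 0.00614). Nppb was at 1.99, 3.01, 2.16, 1.66 and 2.23 in GFP-naive and at 2.83 (lowest), 3.58 (median) and 3.73 (highest) in α9k1-naive. A single GFP-naive library overlapped the α9k1-naive range, and the log2FC was 1.62 (SE 0.27, adjusted p = 5.91e-04). All 3 of these calls held with each of the 19 libraries left out in turn. Nppb, at the percentile 7.34 of all genes, was not covered by the fit that left out the lowest 25% of genes.

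Npy, the member called lower, had the less stable difference. It was at 5.49, 5.98, 5.97, 4.21 and 4.18 in GFP-naive and at 2.85 (lowest), 4.09 (median) and 6.18 (highest) in α9k1-naive, and the ranges overlapped. The log2FC with covariates was -2.23 (SE 0.82, adjusted p = 0.0671), whereas the plain difference of the group means was -0.88 (adjusted p = 0.321 without covariates). The call was kept in 13 of the 19 fits that left out a library. It was lost without GFP-naive replicate 1 or 2, GFP-crush replicate 2 or 3, α9k1-naive replicate 6 or α9k1-crush replicate 3, where the log2FC was -1.98, -1.97, -2.05, -1.64, -2.45 and -2.19.

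The nociceptor peptides were not called, but leaving out a single library changed this for Calca and Tac1. Calca was at 10.94, 11.06, 11.06, 10.66 and 11.35 in GFP-naive and between 11.08 and 12.04 in α9k1-naive (median 11.50), with a log2FC of 0.92 (SE 0.58, adjusted p = 0.28). Tac1 was at 11.08, 10.13, 10.81, 10.11 and 11.61 in GFP-naive and between 11.25 and 12.20 in α9k1-naive (median 11.49), with a log2FC of 1.75 (SE 0.76, adjusted p = 0.115). Both were high in α9k1-naive and overlapped GFP-naive. All groups share an estimate of the spread in this model, and α9k1-crush replicate 1, in which both transcripts were very low, entered it. Without that library, Calca was called higher at a log2FC of 1.07 (adjusted p = 0.00107) and Tac1 at 1.89 (adjusted p = 0.0285), and 6 of the 9 members passed in place of 4, beside 29.0% of all genes in that fit. Tac1 was also called without α9k1-crush replicate 3 (2.06, adjusted p = 0.074) and without α9k1-naive replicate 4 (2.01, adjusted p = 0.0651), whereas Calca was called in only 1 of the 19 fits that left out a library. Calcb lay between 8.33 and 9.05 in GFP-naive and between 8.41 and 9.12 in α9k1-naive, and was not called (adjusted p = 0.33).

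Sst was at 4.94, 8.06, 8.10, 5.04 and 8.26 in GFP-naive, so that 3 libraries stood about 3 log2 units above the other two, and at 2.89 (lowest), 4.51 (median) and 5.36 (highest) in α9k1-naive. The log2FC was -1.76 (SE 0.80, adjusted p = 0.132) with covariates, and without them it was -2.66 and called (adjusted p = 0.0024), in a fit that called 46.0% of all genes in this comparison. With covariates Sst was also called without α9k1-naive replicate 2 (-1.90), GFP-naive replicate 1 (-2.43) or GFP-naive replicate 4 (-2.81), of which the last 2 are the low GFP-naive libraries. Vip was at 2.34, 3.13, 3.38, 3.58 and 2.38 in GFP-naive and between 2.99 and 4.57 in α9k1-naive, and was not called (adjusted p = 0.683).

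**Figure D2:**
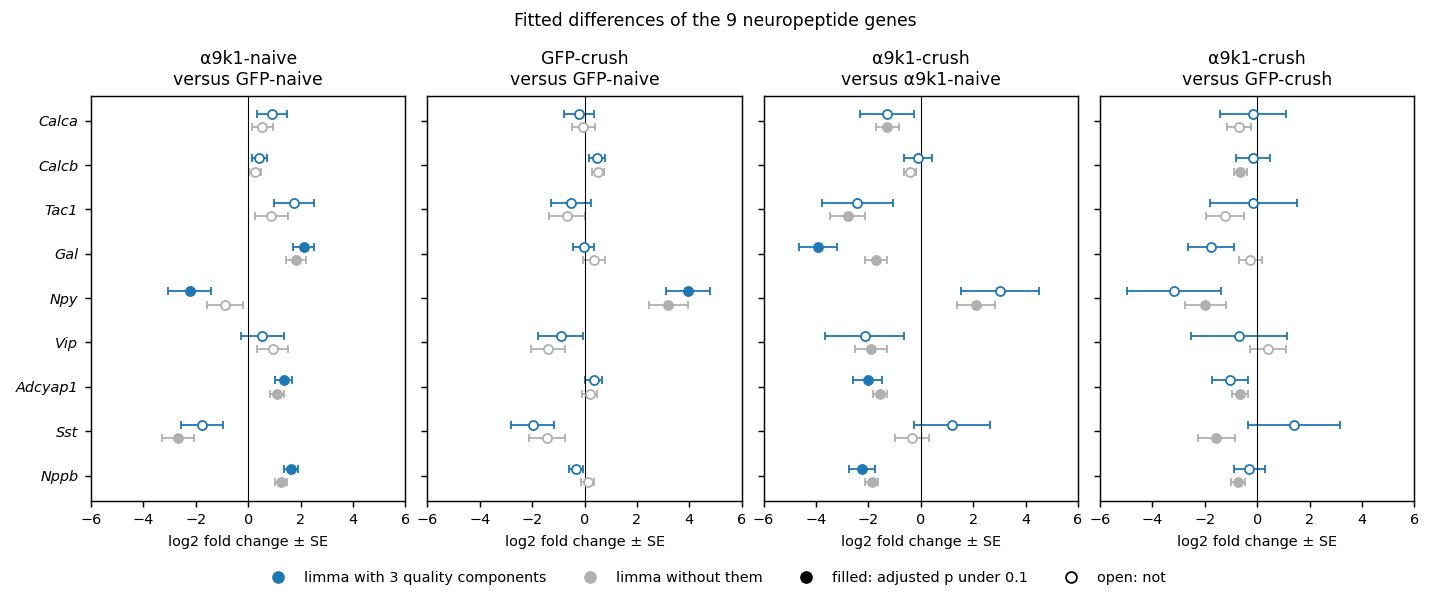
Fitted log2FC ± SE (x axis) of the 9 neuropeptide genes in the 4 comparisons, with the 3 quality components as covariates (blue) and without them (grey), where filled points passed an adjusted p under 0.1. Gal, Adcyap1 and Nppb were filled under both fits in the first and the third panels, and no blue point was filled in α9k1-crush versus GFP-crush.

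Dorsal root crush in GFP neurons was compared with no injury. Neuropeptide Y was the only peptide called, and it was higher after crush. Galanin, vasoactive intestinal peptide and PACAP were not called. The share of members called, 1 of 9, stood beside 23.1% of all genes, with 7.39% higher and 15.7% lower. The median log2FC was -0.22 for the members and -0.08 for all genes.

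Npy was at 9.30, 9.47, 5.53 and 9.14 in GFP-crush, against 5.49, 5.98, 5.97, 4.21 and 4.18 in GFP-naive. In 3 of 4 crush libraries Npy stood above every naive library by over 3 log2 units, and the fourth lay within the naive range. The log2FC was 3.96 (SE 0.83, adjusted p = 0.00711), and it was called with each of the 19 libraries left out. In a fit of these 2 groups alone the log2FC was 4.41 and the adjusted p 0.113.

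Gal was at 6.38, 8.12, 8.20 and 6.59 in GFP-crush, so that 2 libraries were above all GFP-naive libraries and the others were within or below them (adjusted p = 0.966). Vip, at 1.21, 2.83, 0.52 and 1.77, was below all GFP-naive libraries in 3 of 4 (adjusted p = 0.497). Adcyap1 lay between 6.42 and 6.82 (adjusted p = 0.479), and Nppb at 2.10, 2.36, 2.85 and 2.002 (adjusted p = 0.444). Both overlapped the GFP-naive range.

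Calca was at 10.98, 10.84, 11.57 and 10.51 in GFP-crush and Calcb between 8.73 and 9.43, and neither was called (adjusted p = 0.837 and 0.299). Tac1 was at 10.64, 7.94, 11.50 and 10.25, with replicate 2 below every other GFP library (adjusted p = 0.674). Sst was at 5.63, 5.13, 5.47 and 5.53, an even level that fell between the high and the low GFP-naive libraries, with a log2FC of -1.98 (SE 0.80, adjusted p = 0.109). Sst was called lower in 4 of the 19 fits that left out a library, at -2.02 and -2.28 without α9k1-naive replicates 2 and 4 and at -2.11 and -2.59 without GFP-naive replicates 1 and 4. No member had GFP-crush and GFP-naive libraries fully apart, against 19.8% of all genes.

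Crush in α9k1 neurons was compared with α9k1 neurons without injury. The transcripts of galanin, PACAP and B-type natriuretic peptide, which had been higher in α9k1-naive than in GFP-naive, were lower in α9k1-crush than in α9k1-naive. The 3 called members were all lower, against 9.74% of all genes called, 4.47% higher and 5.27% lower. The comparison shares its α9k1-naive libraries with the first, so that high values in those libraries enter both. The α9k1-crush and α9k1-naive libraries were also fully apart in Fermt1 and Itga9, so that crush and transgene level cannot be told apart here. The median log2FC of the members was -2.03 and that of all genes 0.00.

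Gal was at 6.51, 7.98, 6.52 and 7.24 in α9k1-crush, against a lowest α9k1-naive value of 7.54. The log2FC was -3.92 (SE 0.72, adjusted p = 0.00672) with covariates, and the plain difference of means was -1.72 (adjusted p = 0.00205 without covariates). The direction and the call were the same, and the size was not. Adcyap1 was at 5.54, 7.06, 6.08 and 4.90, below all α9k1-naive libraries, with a log2FC of -2.03 (SE 0.56, adjusted p = 0.0466) that was not called without α9k1-naive replicate 4 (-1.52, adjusted p = 0.224). Nppb was at 1.62, 1.61, 1.06 and 2.08, also below all α9k1-naive libraries, with a log2FC of -2.24 (SE 0.49, adjusted p = 0.0159). Groups were fully apart for 3 members (Adcyap1, Nppb and Tac1) and for 33.4% of all genes. A fit of these 2 groups alone called none of these 3 peptides and called Vip (log2FC -6.75, adjusted p = 0.0916).

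Tac1 was at 6.71, 10.85, 9.65 and 8.15 in α9k1-crush, below all 6 α9k1-naive libraries and with a wide spread. With covariates the log2FC was -2.42 (SE 1.36, adjusted p = 0.323), and without them it was -2.79 and called (adjusted p = 0.00216). Leaving out a library moved the log2FC with covariates between -3.62 (without GFP-crush replicate 2) and -1.09 (without α9k1-naive replicate 4), and Tac1 was not called in any of the 19 fits. Calca was at 8.09, 11.09, 10.75 and 11.18, of which only replicate 1 was far from the other groups. The log2FC of Calca was -1.29 (SE 1.04, adjusted p = 0.518) with covariates and -1.28 (adjusted p = 0.0209) without them. With covariates it lay between -1.74 (without α9k1-crush replicate 4) and -0.56 (without α9k1-crush replicate 1), and was not called in any of the 19 fits. Replicate 1 was also the lowest library for Calcb, at 7.58 against 8.38 to 8.92 in the others. Calcb was not called (adjusted p = 0.931).

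Npy was at 6.46, 5.40, 7.36 and 6.29 in α9k1-crush, where 3 libraries were above all α9k1-naive libraries (highest 6.18), with a log2FC of 3.02 (SE 1.48, adjusted p = 0.255), which was 4.53 and called without GFP-naive replicate 4 (adjusted p = 0.0594). Without covariates the log2FC was 2.09 and called (adjusted p = 0.0226). Vip was at 0.91, 4.45, 2.51 and 0.11 (log2FC -2.14, SE 1.51, adjusted p = 0.444), and its plain difference of -1.90 was called without covariates (adjusted p = 0.0181). Sst was at 4.31, 4.09, 3.57 and 3.57, within the α9k1-naive range (adjusted p = 0.698). In total 7 members and 55.6% of all genes were called without covariates in this comparison.

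α9k1 neurons after crush were compared with GFP neurons after crush. No member passed the test with covariates, and none had an unadjusted p under 0.05 in this fit, where 0.911% of all genes passed, 0.728% higher and 0.182% lower. Without covariates 5 members and 58.0% of all genes passed. The covariates overlapped with these groups, as 74.5% of the variance of the third quality component lay between the 4 groups, and the variance factor of the comparison rose from 0.50 to 3.11 when they were included. The comparison was thus less precise than the others, with SEs of 0.59 to 1.83 for the members against 0.27 to 0.84 in α9k1-naive versus GFP-naive.

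The 5 members that passed without covariates were all lower in the α9k1-crush group, as were 28.3% of all genes in that fit. Npy differed by -1.98 (adjusted p = 0.0437), Nppb by -0.74 (adjusted p = 0.0317), Calcb by -0.65 (adjusted p = 0.0352) and Adcyap1 by -0.65 (adjusted p = 0.0857). The libraries overlapped for these 4 members. Sst differed by -1.55 (adjusted p = 0.0788), and its 4 α9k1-crush libraries (3.57 to 4.31) were below all 4 GFP-crush libraries (5.13 to 5.63), which also held for the groups of 40.8% of all genes. With covariates the log2FC of Sst was 1.40 (SE 1.74, adjusted p = 0.873), the opposite sign. Gal had medians of 6.88 and 7.36 and overlapping libraries (adjusted p = 0.58), and Vip spread over 0.11 to 4.45 in α9k1-crush (adjusted p = 0.953).

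The α9k1 effect after crush was then set against the α9k1 effect without injury. Fermt1 and Itga9 were higher in α9k1-crush than in α9k1-naive, and their part in the interaction was not tested. The interaction passed for Gal and Adcyap1, both lower, and for 2.20% of all genes, 1.35% higher and 0.847% lower. For Gal it was -3.88 (SE 0.82, adjusted p = 0.0379) with covariates and -2.08 (adjusted p = 0.014) without them. For Adcyap1 it was -2.38 (SE 0.64, adjusted p = 0.0993), a value so near the threshold that it was kept in only 3 of the 19 fits that left out a library. Without GFP-crush replicate 2 neither gene passed (Gal -3.46, adjusted p = 0.151). The interaction of Nppb was -1.92 (SE 0.56, adjusted p = 0.128), and it was called without α9k1-naive replicate 3 (-2.32), α9k1-naive replicate 4 (-2.45) or GFP-naive replicate 2 (-2.12). Without covariates the interaction of Nppb was -1.99 and called (adjusted p = 7.57e-04), in a fit that called 39.4% of all genes.

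The deposited values were also compared without any model, by an exact permutation test of each member in each comparison (2-sided, 36 tests, no adjustment). In α9k1-naive versus GFP-naive 7 of the 9 members had an exact p under 0.05, beside 46.0% of all genes. It was 0.00216 for Adcyap1, which is the smallest that these libraries allow by the exact test, 0.00433 for Gal and 0.00649 for Nppb. The exact p was also under 0.05 for Sst (0.0173), Calca (0.0195), Tac1 (0.0238) and Vip (0.0346), which limma with covariates did not call, and it was 0.184 for Npy, which limma called. In α9k1-crush versus α9k1-naive 7 members were again under 0.05, beside 51.3% of all genes, with an exact p of 0.00476, the smallest possible, for Tac1, Adcyap1 and Nppb, 0.00952 for Gal, 0.0143 for Calca, 0.019 for Npy and 0.0476 for Vip. In GFP-crush versus GFP-naive, where 33.1% of all genes were under 0.05, the exact p was 0.0238 for Npy and 0.0397 for both Calcb, with the higher mean after crush, and Vip, with the lower. In α9k1-crush versus GFP-crush the smallest exact p that 4 libraries against 4 allow is 0.0286, and Sst alone had this value, beside 40.8% of all genes.

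Nociceptor and injury-induced peptides were set side by side in each library. The mean of Calca and Tac1 was 10.88 ± 0.42 (SD) over the 5 GFP-naive libraries, 11.60 ± 0.37 over the 6 of α9k1-naive, 10.53 ± 0.90 over the 4 of GFP-crush and 9.56 ± 1.53 over the 4 of α9k1-crush. The mean of Gal, Npy and Vip was 5.03 ± 0.39, 5.65 ± 0.34, 5.76 ± 0.84 and 5.15 ± 0.68 in the same groups. Injury minus nociceptor peptides therefore came to -5.85 ± 0.68 in GFP-naive, -5.94 ± 0.47 in α9k1-naive, -4.77 ± 1.74 in GFP-crush and -4.41 ± 1.11 in α9k1-crush. In these deposited values both sets had a higher mean in α9k1-naive than in GFP-naive, and the difference between the sets moved by less than its SD between these 2 groups. With covariates the log2FC there was 0.92 for Calca and 1.75 for Tac1, against 2.12 for Gal, -2.23 for Npy and 0.55 for Vip. The difference between the sets thus moved further down in that fit than in the deposited values. The crush libraries spread more widely than the naive ones. With covariates regressed out, the gap from GFP-crush to α9k1-crush changed from 0.36 to -1.72.

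**Figure D3:**
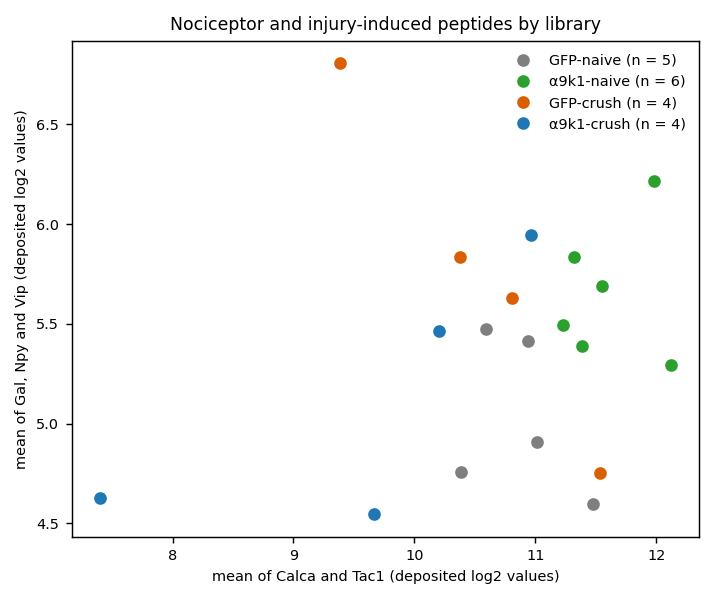
Mean of the nociceptor peptides Calca and Tac1 (x axis) against the mean of the injury-induced peptides Gal, Npy and Vip (y axis) in each of the 19 libraries, in deposited log2 values. On the x axis the α9k1-naive libraries lie at 11.2 to 12.1 and the GFP-naive libraries at 10.4 to 11.5, with overlap, and the crush libraries spread from 7.40 to 11.5.

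The 3 injury-induced peptides did not move as a set. Over the groups Gal was highest in α9k1-naive (8.78 ± 0.68), followed by GFP-crush (7.33 ± 0.97), α9k1-crush (7.06 ± 0.70) and GFP-naive (6.96 ± 0.33), and each neighbouring pair overlapped. Npy was highest in GFP-crush (8.36 ± 1.89) and lowest in α9k1-naive (4.29 ± 1.12), with α9k1-crush (6.38 ± 0.80) and GFP-naive (5.17 ± 0.91) between them and overlapping neighbours throughout. Vip ran from 3.90 ± 0.58 in α9k1-naive through 2.96 ± 0.57 in GFP-naive and 1.996 ± 1.92 in α9k1-crush to 1.58 ± 0.98 in GFP-crush, again with overlap between neighbours. Over the 19 libraries Gal and Npy had a Pearson r of -0.46, and -0.26 after the group means were subtracted.

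Among the members, Tac1 and Adcyap1 had a Pearson r of 0.81 over the 19 libraries and 0.71 after the group means were subtracted, and these were 0.80 and 0.73 without α9k1-crush replicate 1, an omission chosen after the data were seen. Calca and Calcb had an r of 0.68, and 0.73 within groups, which rested on that library, since without it they were 0.25 and 0.36. Calca and Tac1 had an r of 0.78, and 0.67 within groups, against 0.63 and 0.44 without it. Gal and Nppb had an r of 0.76 over all libraries and 0.35 within groups. These values describe 19 libraries that differ in depth and in their levels of neuronal and other cell type markers.

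The genes whose values over the 19 libraries were most like those of each member were also found. Tac1 was nearest to Syt5 (r = 0.95), a synaptotagmin, followed by 6030408B16Rik (r = 0.95) and by Stx1a (r = 0.95), a syntaxin, and the r of Syt5 was 0.94 within groups. Calca was nearest to Hpcal1 (r = 0.90, and 0.69 without α9k1-crush replicate 1), a neuronal calcium sensor, and Calcb to Ap1s1 (r = 0.74), a subunit of a clathrin adaptor. Npy was nearest to Cnrip1 (r = 0.89), which binds the cannabinoid receptor, and Maoa (r = 0.86), a monoamine oxidase. Fgf13 (r = 0.83, and 0.61 within groups) was among the 3 genes nearest to Gal but was not the nearest. Nppb was nearest to Relb (r = 0.92), a subunit of NF-κB, and Kdm6b (r = 0.90), a histone demethylase, and fell to 0.77 and 0.63 within groups. Sst was nearest to the ribosomal protein genes Rps19 (r = 0.89) and Rps6 (r = 0.85), Adcyap1 to Cnn2 (r = 0.89) and Vip to Phlpp1 (r = 0.85).

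Other genes of peptide signalling were counted from lists. Of 33 other neuropeptide precursors, 12 were in the table, and in α9k1-naive versus GFP-naive 2 were higher and 2 lower. Adm, the precursor of the vasodilator adrenomedullin, was at 5.88 to 6.36 in α9k1-naive and at 2.87 to 3.57 in GFP-naive, a log2FC of 2.996 (SE 0.20, adjusted p = 7.08e-08) that exceeded that of any member in this comparison. In α9k1-crush versus GFP-crush Adm was the only precursor called (log2FC 2.03, adjusted p = 0.0531), and it was lower in both crush groups than in their naive groups (-1.11 in GFP and -2.07 in α9k1). Grp, gastrin-releasing peptide, was higher by 0.58 in α9k1-naive and lower after crush by -1.01 in GFP and -1.14 in α9k1. The opposite held for Npb, lower in α9k1-naive (-1.56) and higher after crush in α9k1 (1.57), and Iapp was lower in α9k1-naive (-1.42). Of the 12 precursors, 0 were higher and 2 lower after crush in GFP neurons, and 1 was higher and 3 lower after crush in α9k1 neurons.

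Of 31 genes for peptide processing and dense-core vesicles, 30 were measured, and 14 passed in α9k1-naive versus GFP-naive, 6 higher and 8 lower. Scg2 (secretogranin II) was higher by 1.06 and Ptprn2, a protein of the vesicle membrane, by 1.21, while Chga (chromogranin A) was lower by -1.04 and Mme, the peptidase neprilysin, by -1.13. The median over the list was -0.01. In GFP-crush versus GFP-naive 3 were higher and 3 lower, in α9k1-crush versus α9k1-naive 4 were higher and 3 lower, and in α9k1-crush versus GFP-crush none passed.

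Of 31 receptor genes for these peptides, 9 were in the table. In α9k1-naive versus GFP-naive 1 was higher and 2 lower, in both crush comparisons within a virus group 2 were lower, and in α9k1-crush versus GFP-crush none passed. Npy1r, a receptor of neuropeptide Y, was higher in α9k1-naive neurons (log2FC 1.92, SE 0.49, adjusted p = 0.0126), and lower after crush in GFP neurons (-1.36, adjusted p = 0.0789) and in α9k1 neurons (-2.83, adjusted p = 0.0787). In these 3 comparisons the log2FC of Npy had the opposite sign, and it was called in the first and the second. Ntsr2, a neurotensin receptor, was lower in α9k1-naive (-2.59, SE 0.49, adjusted p = 0.00172), and so was Ramp1, the partner protein of the CGRP receptor (-1.28, adjusted p = 0.0817). Galr2, a galanin receptor, was lower after crush in GFP neurons by -0.73, and Ramp2, a partner of the adrenomedullin receptor, after crush in α9k1 neurons by -1.08.

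CREB, the factor that binds the element shown for Sst, and cAMP signalling were represented by 17 of 20 listed genes. In α9k1-naive versus GFP-naive 5 were higher and 2 lower, among them Atf3 (log2FC 2.99), Pde4b, a cAMP phosphodiesterase (3.62), Atf4 (1.37) and Crem (1.16). In α9k1-crush versus GFP-crush 2 were higher, Atf3 (2.16) and Pde4b (2.35), and none lower. In GFP-crush versus GFP-naive 1 was higher and 5 lower, and in α9k1-crush versus α9k1-naive 3 were lower, Atf3 (-1.42), Atf4 (-1.53) and Pde4b (-2.09), and none higher. Of the genes known to rise after axotomy, other than the members, 15 of 18 were in the table, and 10 were higher and 1 lower in α9k1-naive versus GFP-naive. In GFP-crush versus GFP-naive 1 was higher and 4 lower, with Atf3 at -0.59 and Jun at -0.76. In α9k1-crush versus α9k1-naive 6 were lower and none higher, and in α9k1-crush versus GFP-crush 3 were higher and none lower.

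Markers of cell types differed between the groups alongside the peptides, and their part in the peptide results was not tested. In bulk libraries of sorted cells, fewer cells of a type and less RNA per cell cannot be told apart. Of 12 markers of myelinated neurons, 2 were higher and 6 lower in α9k1-naive versus GFP-naive, including Nefh (log2FC -2.32), and their summed level was 12.1 to 12.3 against 12.4 to 12.9. In GFP-crush versus GFP-naive 5 were higher and 1 lower, and in α9k1-crush versus α9k1-naive 6 were higher and 2 lower. The summed level of this list was 12.96 to 13.73 in GFP-crush and 13.23 to 13.82 in α9k1-crush. Of 10 markers of peptidergic nociceptors, Trpv1, the capsaicin receptor, and Prph were higher in α9k1-naive (1.16 and 0.34), and Trpv1 and Trpa1 were lower in α9k1-crush versus α9k1-naive (-2.65 and -3.92). The summed level of this list was 10.43 to 10.82 in GFP-naive, 10.54 to 11.13 in α9k1-naive, 10.59 to 10.73 in GFP-crush and 10.18 to 11.0004 in α9k1-crush. Of the 2 measured genes of the itch neuron class, Osmr was higher in α9k1-naive (1.87) and lower in α9k1-crush versus α9k1-naive (-1.42), while Jak1, a kinase used by many cytokine receptors, was lower in α9k1-naive (-0.49) and was not called in α9k1-crush versus α9k1-naive (0.71, adjusted p = 0.233). The defining gene Il31ra was not in the table. Of 8 markers of non-peptidergic nociceptors, 1 was higher in α9k1-naive versus GFP-naive and 2 were lower in GFP-crush versus GFP-naive.

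Non-neuronal markers moved too. Of 10 markers of macrophages and leukocytes, 8 were higher in α9k1-naive and 8 in GFP-crush, each against GFP-naive, and 2 were higher in α9k1-crush versus α9k1-naive. Their summed level was 9.01 to 9.59 in GFP-naive against 10.6 to 11.1, 11.2 to 11.8 and 10.8 to 11.5 in α9k1-naive, GFP-crush and α9k1-crush. All 7 measured markers of endothelium and fibroblasts were lower when α9k1-naive was set against GFP-naive, and 5 were lower in GFP-crush versus GFP-naive. In α9k1-crush versus α9k1-naive 4 of them were higher and none lower (median log2FC 1.54), and the interaction passed for 4. Of 12 markers of satellite glia and Schwann cells, 3 were higher and 5 lower in α9k1-naive versus GFP-naive, with Apoe, a lipid carrier, higher by 0.89. In GFP-crush versus GFP-naive 1 was higher and 5 lower, and in α9k1-crush versus α9k1-naive 4 were higher and 4 lower, with Apoe lower by -1.68. Their summed level was 15.8 to 16.2 in GFP-naive, 16.3 to 16.8 in α9k1-naive, 15.2 to 15.5 in GFP-crush and 14.5 to 15.2 in α9k1-crush. Of 9 general neuron markers, 1 was higher and 1 lower in α9k1-naive versus GFP-naive, 4 were higher in GFP-crush versus GFP-naive and 1 was higher in α9k1-crush versus α9k1-naive. All 11 immediate early genes, which rise with cell stress and dissociation as well as with activity, were higher in α9k1-naive and lower in GFP-crush, each against GFP-naive. Of these, 5 were lower and none higher in α9k1-crush versus α9k1-naive, where Gal, Adcyap1 and Nppb were lower, and 8 were higher and none lower in α9k1-crush versus GFP-crush.

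**Figure D4:**
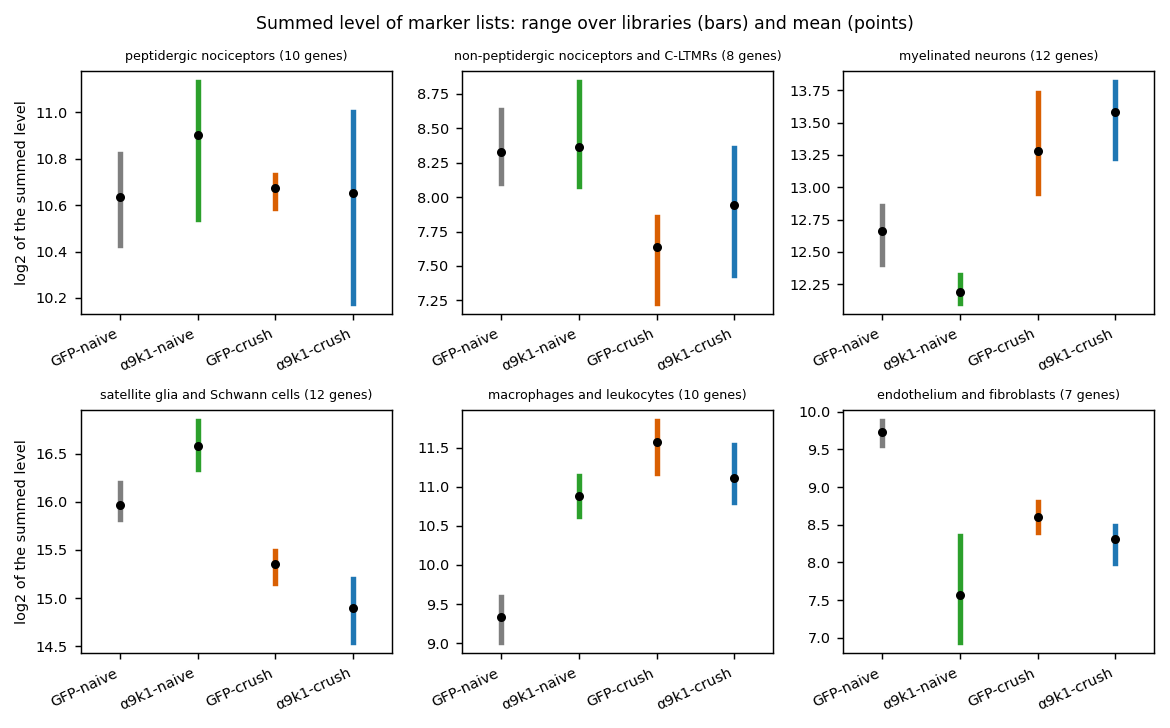
Log2 of the summed level of 6 marker lists (y axis, a separate range in each panel) by group, with bars from the lowest to the highest library and points at the mean. The macrophage list is lowest in GFP-naive (9.01 to 9.59), and the myelinated list is lowest in α9k1-naive (12.1 to 12.3).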

How the data were processed

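RNA from FACS-sorted GFP-positive DRG neurons was sequenced in 19 libraries (SMART-Seq v4). The authors aligned reads to mm10/GRCm38 with STAR, counted them with Salmon, removed genes with low counts, took log2 with a small pseudocount and normalised for gene length and depth with cqn. The deposited expression table holds these log2 values and no gene names. Names were taken from the gene table deposited in the same order, in which mean expression is a score of undescribed scale, used only to check the order (Spearman rho = 0.999 over 12629 genes, 0.0776 when shifted by 1 row). That table also holds fold changes and p-values of the authors' own comparisons, which were not used. The deposited library metrics (Picard) hold counts of reads and bases, and the authors gave them as Picard writes them. They also hold a fraction for each share of reads, a percent for AT and GC dropout and a ratio for coverage biases, as deposited. Counting error cannot be given from normalised values, and the SD between libraries includes it.

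One limma fit (limma 3.58.1, R 4.3.3) took all libraries, 4 group means and the first 3 principal components of 48 scaled metrics, with Benjamini-Hochberg adjustment over all genes and a threshold of 0.1. All adjusted p-values are from limma, and the test was checked on simulated data with 200 changed genes. The study's batch term is not in the labels and was left out. Libraries of the same replicate number in different groups did not deviate alike (correlations of deviations -0.27 to 0.13), which does not show whether they shared a batch. Members are all described. From each list, at most 4 called genes with the largest log2FC per comparison are named, and for each member the 3 genes with the highest Pearson r were found, of which 1 to 3 are named. Values of further marker genes were chosen after they were seen, and values of some genes are not reported here. Members and gene lists were chosen with earlier results of these data known. Alternatives were no covariates, only the groups compared, the replicate number as a block, a filter that left out the lowest 25% of genes, other scalings and each library left out.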

Additional observations from a re-analysis of the deposited data

Results flagged for a closer look

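Of 36 sets of libraries, each a member in a group, 3 had a library that stood apart from the rest by more than Dixon's critical value for its size, where chance alone gives about 1 in 20. Calca in α9k1-crush replicate 1 was at 8.09, with the other 3 libraries between 10.8 and 11.2. Npy in GFP-crush replicate 3 was at 5.53, with the others between 9.14 and 9.47. Adcyap1 in GFP-crush replicate 3 was at 6.82, with the others between 6.42 and 6.47. The α9k1 effect differed between crush and no injury for Gal (interaction -3.88) and for Adcyap1 (interaction -2.38), by limma's test of the interaction at an adjusted p under 0.1.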

How the results depend on the processing

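The largest change came from the covariates. Without them, 5 members were called in α9k1-crush versus GFP-crush in place of 0, 7 in place of 3 in α9k1-crush versus α9k1-naive and 4 in place of 2 for the interaction, and 7323 genes in place of 115, 7017 in place of 1230 and 4970 in place of 278 were called in all. In α9k1-naive versus GFP-naive, 5813 genes were called in place of 3669. Sst in α9k1-crush versus GFP-crush changed sign, from 1.40 to -1.55 without covariates and to -0.54 with only these 2 groups. With only the groups compared, 0 members in place of 1 were called for GFP-crush versus GFP-naive, and 1 in place of 3 for α9k1-crush versus α9k1-naive, which was Vip and none of the 3, where 7.32% and 1.60% of all genes were called. Leaving out the lowest 25% of genes removed Vip and Nppb, and gave 2 calls in GFP-crush versus GFP-naive, Npy and Sst, among 26.6% of all genes left. With covariates regressed out, the injury minus nociceptor difference was -1.72 in α9k1-crush versus GFP-crush in place of 0.36. The cause of these changes was not tested.

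Whether a shared replicate number marks libraries handled together is not known. With the replicate number as a block and covariates, 2 members were called in GFP-crush versus GFP-naive, 1 in α9k1-crush versus α9k1-naive and 0 for the interaction, beside 21.6%, 2.62% and 0.206% of all genes. Nppb in α9k1-crush versus GFP-crush changed sign to 0.34 and Vip in α9k1-crush versus α9k1-naive to 0.06. With the block and no covariates, 5 members were called between the crush groups, 3 for crush in GFP neurons, 7 for crush in α9k1 neurons and 4 for the interaction, beside 57.5%, 32.3%, 51.2% and 35.5% of all genes, and Sst in α9k1-crush versus GFP-crush was at -1.55.

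With each library left out in turn, 3 to 6 members were called in α9k1-naive versus GFP-naive, 0 to 0 in α9k1-crush versus GFP-crush, 1 to 2 in GFP-crush versus GFP-naive, 2 to 4 in α9k1-crush versus α9k1-naive and 0 to 2 for the interaction, which was 0 without GFP-crush replicate 2. Of all genes, 21.8% to 30.2%, 0.507% to 1.32%, 11.9% to 25.1%, 5.15% to 13.8% and 0.934% to 3.49% were called in these fits. In α9k1-crush versus GFP-crush, Calcb lay between -0.62 and 0.23, positive without α9k1-crush replicate 1, and Sst between -0.45 and 2.46, negative without GFP-naive replicate 1. Npy in α9k1-naive versus GFP-naive kept its call in 13 of 19 such fits. Vip and Nppb were the least abundant members, and the reads behind their values are not known from normalised values.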
